A study of Rattus norvegicus with 6 samples.

Results

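The genes Prf1, Gzma, Gzmb, Gzmk, Gzmm, Nkg7 and Ifng, 7 of the 32883 genes counted, were followed through single cells of the rat pancreas. They were chosen by name, as the pore former, the proteases and a membrane protein of cytotoxic granules together with interferon gamma, with earlier results of these data known. Their transcripts were counted as unique molecular identifiers (UMIs, tags that mark single captured transcripts) in 6 libraries, 1 for each of 6 male Wistar rats. The groups were young rats of 2 months, old rats of 20 months kept on the control diet for 18 months, and HFHF-old rats of 20 months kept on a high-fat high-fructose (HFHF) diet for 18 months, with 2 rats in each. The cells came from an islet isolation with collagenase P and a Histopaque gradient, so the lymphocytes are those that travelled with this preparation.

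Cytotoxic lymphocytes kill by releasing granules onto a target cell. Perforin, the product of Prf1, forms pores in the target membrane, and granzymes, which are serine proteases, pass through and start cell death. Interferon gamma is a secreted cytokine that natural killer (NK) cells and T cells make and that raises antigen presentation and activates macrophages.

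The 300 bases around the annotated start of the gene, from 250 before to 50 after it, are shown for the granule genes Prf1 and Gzmb and the cytokine gene Ifng. The order of these genes over classes of cells differed. All 7 members were found in the RefSeq promoter table, whose build is GRCr8 and not the build of the counts. Capitals mark matches, on either strand, to 5 short motifs of factor families known in lymphocytes: T-box (GTGTGA), Runx (TGTGGT), AP-1 (TGANTCA), STAT (TTCNNNGAA) and ETS (AGGAAG). No matches overlapped in the members' windows. The windows lie at chr20:29788790-29789089 on the plus strand for Prf1, at chr15:34462420-34462719 on the minus strand for Gzmb and at chr7:55788930-55789229 on the plus strand for Ifng, each printed 5′ to 3′ along the gene.
Prf1: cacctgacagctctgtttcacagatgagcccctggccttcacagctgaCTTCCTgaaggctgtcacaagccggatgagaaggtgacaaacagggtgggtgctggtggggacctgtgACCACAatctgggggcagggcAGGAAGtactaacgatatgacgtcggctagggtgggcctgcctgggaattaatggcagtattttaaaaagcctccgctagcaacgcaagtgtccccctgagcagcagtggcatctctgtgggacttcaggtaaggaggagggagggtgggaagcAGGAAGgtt
Gzmb: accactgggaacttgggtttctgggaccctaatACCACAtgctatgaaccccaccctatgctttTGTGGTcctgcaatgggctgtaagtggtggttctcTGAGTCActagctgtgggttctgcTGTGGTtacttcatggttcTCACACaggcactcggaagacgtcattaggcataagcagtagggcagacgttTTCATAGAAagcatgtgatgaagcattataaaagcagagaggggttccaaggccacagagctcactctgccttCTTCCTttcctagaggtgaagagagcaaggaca
Ifng: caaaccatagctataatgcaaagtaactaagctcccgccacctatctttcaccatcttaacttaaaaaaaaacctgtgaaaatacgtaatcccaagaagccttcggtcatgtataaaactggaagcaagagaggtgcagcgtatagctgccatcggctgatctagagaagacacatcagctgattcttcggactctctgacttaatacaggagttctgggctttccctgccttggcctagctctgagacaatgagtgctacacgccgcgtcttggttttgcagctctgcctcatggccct

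The Gzmb window held all 5 motifs, with 3 Runx matches, and the Prf1 window held 1 Runx and 3 ETS matches. The Ifng window held none of these letters. From its annotated start this window reads atg and runs on without a stop codon. The start used for Ifng may thus be that of translation, and its window may not be comparable with the others. Over the 7 members, the Runx letters stood in 6 windows and the T-box letters in 4 (Gzmb, Gzmk, Gzmm and Nkg7), whereas 17.3% and 13.7% of all 33469 promoter windows of the same length held them. AP-1 letters were in 1 member (7.33% of all windows), STAT letters in 2 (8.87%) and ETS letters in 3 (34.5%). A match describes the letters in a window and is not a measured binding site. The motifs were chosen after the promoters were seen, so these counts are a description and no test of enrichment.

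NK cells were gated as cells with UMIs of at least 2 of Ncr1, Klrd1 and Klrb1a and none of Cd3e. CD8 T cells held Cd3e and Cd8b without Cd4, CD4 T cells held Cd3e and Cd4 without Cd8a or Cd8b, and both were limited to fewer than 2 of the NK genes. None of the 7 members was used in a gate. In the order young 1, young 2, old 1, old 2, HFHF-old 1 and HFHF-old 2, which is kept throughout, there were 2020, 2066, 925, 1317, 1126 and 8136 NK cells, 60, 14, 262, 347, 112 and 574 CD8 T cells, and 47, 21, 64, 114, 139 and 108 CD4 T cells. Levels are given as counts per 1000000 (CPM), the UMIs of a gene in all cells of a class in a rat over all UMIs of those cells. The NK gate held genes of NK cells that it did not use, such as Il2rb (mean over rats 609.7 CPM) and Tbx21 (334), and little of the T cell genes Cd3d (4.64) and Cd3g (10.1). It also held Tyrobp (2215), which myeloid cells share. Without the cells that held defining markers of another class, 1330, 729, 699, 1195, 360 and 8032 NK cells were left. The CD4 T gate also held Tyrobp (519) and Fcer1g (490.3), genes of NK and myeloid cells, and 19, 5, 28, 85, 36 and 105 of its cells were left in the same way.

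The libraries held 77387928 to 166875258 UMIs and 7381 to 17443 cells, 75201 in all, with a median of 2537 to 9391.5 UMIs per cell, and any 2 libraries shared at most 0.604% of the barcodes of the smaller one. Young replicate 2 stood apart. Of its 2066 NK cells, 863 were left when cells with a large share of UMIs from hormones and digestive enzymes were taken out, against 1987 of 2020 in young replicate 1. HFHF-old replicate 2 also stood apart, with 69.4% of its cells in the NK gate against 8.04% to 20.1% in the other libraries.

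Prf1 stood at 1348, 314, 1017, 1015, 948 and 1055 CPM in NK cells. In CD8 T cells it stood at 84.9, 16.7, 48.8, 81.6, 101 and 64.4, and in CD4 T cells at 10.3, 25.2, 12.4, 5.56, 9.78 and 18.9. The lowest NK level, that of young replicate 2, was above the highest CD8 T level, and Prf1 was higher in CD8 T than in CD4 T cells in 5 of 6 rats. Without secretory cells the NK level of young replicate 2 was 758, and its levels of the other members were 1491 for Gzma, 186 for Gzmb, 470.1 for Gzmk, 1079 for Gzmm, 1065 for Nkg7 and 6.09 for Ifng. Fibroblasts, which do not make perforin and serve as a measure of free RNA in the droplets, held 1.91 to 6.88.

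Gzma encodes a tryptase granzyme. It stood at 1112, 688, 315, 658, 252 and 963 in NK cells and at 21.2, 117, 4.13, 12.8, 2.48 and 26.9 in CD8 T cells. Its level in fibroblasts was 0.428 to 9.48 in 5 rats and 39.8 in young replicate 2, whose beta cells held 133. The CD8 T level of that rat was thus below the level in its own beta cells, and CD8 T cells were above all 15 classes gated by markers other than those of NK, Cd3e, ILC2 and mast cells in 2 of 6 rats.

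Gzmb, the granzyme that cleaves after aspartate and activates caspases, stood at 255, 83.7, 261, 281, 129 and 205 in NK cells. Its CD8 T levels were 18.9, 11.1, 3.72, 17.3, 6.21 and 10.1, all below the lowest NK level. In CD4 T cells it was 0 in both young rats and in old replicate 2, where 3 UMIs would have given 7.73, 15.1 and 4.17, and at most 5.25 elsewhere. Gzmb lies among closely related granzyme genes in the annotation, so its counts are uncertain where reads match more than 1 copy, and this was not tested. Of its relatives, Gzmc stood at no more than 0.109, Gzmf at no more than 6.46 and Gzmbl1 at no more than 12.6 in NK cells of any rat.

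Gzmk, a tryptase granzyme that neighbours Gzma in the genome, stood at 935, 222, 1141, 1117, 719 and 1319 in NK cells. In CD8 T cells its levels were 252, 16.7, 31.0, 73.2, 53.4 and 106, and in CD4 T cells 2.58, 25.2, 27.8, 16.7, 40.8 and 30.4. CD8 T and CD4 T levels overlapped, and without secretory cells the CD4 T level of young replicate 2 was 0 in place of 25.2. Gzmm, which cleaves after methionine and leucine, was at 1371, 552, 1031, 2326, 1010.3 and 1588 in NK cells. Its CD8 T levels were 789.9, 166.7, 46.3, 215, 130.4 and 188, and that of young replicate 1 was above the lowest NK level.

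Nkg7, a membrane protein of the granules that takes part in their release, stood at 1204, 521, 1227, 1886, 929 and 1289 in NK cells. It was at 351, 317, 126, 301, 123 and 281 in CD8 T cells and at 7.73, 90.7, 20.1, 15.3, 11.4 and 32.5 in CD4 T cells. The 90.7 of young replicate 2 became 0 without secretory cells, a setting that left 11 of its 21 CD4 T cells. The 3 classes did not overlap over rats, and CD8 T cells were above the same 15 classes in 6 of 6 rats.

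Ifng stood in another order. It was at 22.4, 2.48, 9.15, 6.52, 8.06 and 28.0 CPM in NK cells, at 137, 55.6, 238, 60.4, 137 and 267 in CD8 T cells and at 48.9, 0, 20.1, 52.9, 31.0 and 78.7 in CD4 T cells. Every CD8 T level was above every NK level. Cells with Cd3e that passed neither T gate and had fewer than 2 of the NK genes held 41.4, 12.3, 206, 97.6, 97.4 and 268, and fibroblasts 0 to 0.855. Among the same 15 classes the highest level was 4.00, in B cells of old replicate 1. Cells that passed no gate, which mix classes, held 7.61, 0, 24.4, 29.6, 2.53 and 30.5.

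**Figure D1:**
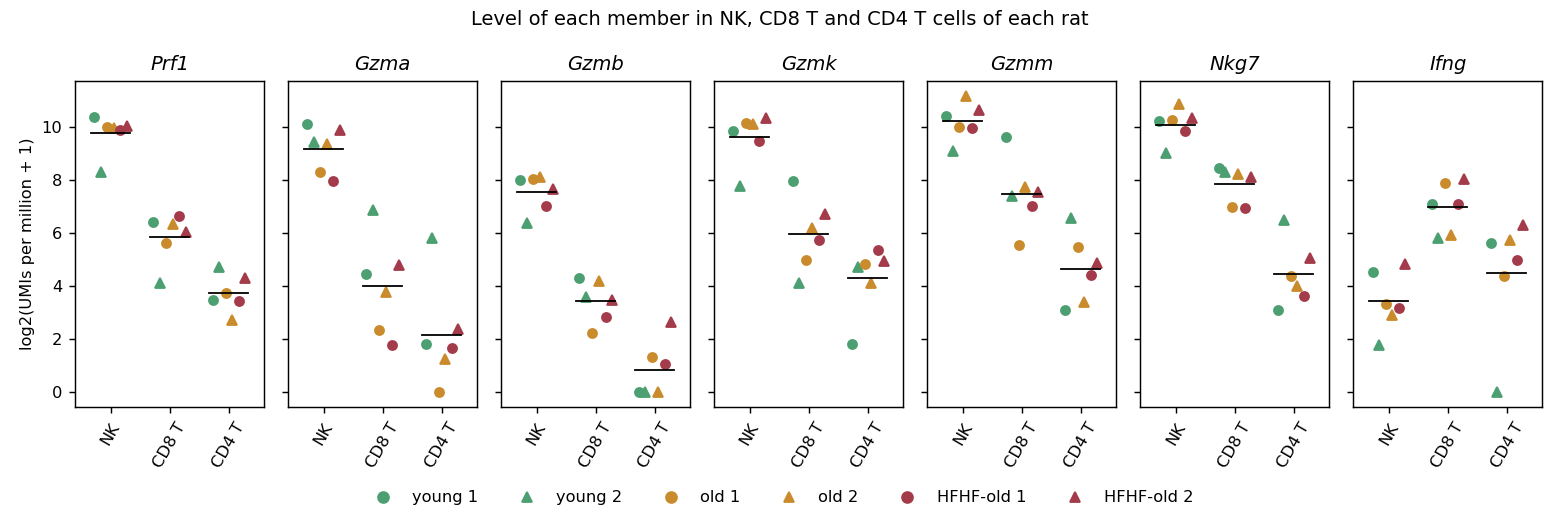
Level of each member in NK, CD8 T and CD4 T cells, as log2 of CPM plus 1, with 1 point per rat and a line at the mean of the 6 rats. The 6 granule genes fall from NK to CD8 T to CD4 T cells on average, and Ifng is highest in CD8 T cells.

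By their means over rats, and leaving out the cells that passed no gate, the classes stood in the order NK cells, Cd3e cells with NK genes, CD8 T cells, other Cd3e cells and CD4 T cells for Prf1, Gzmk and Gzmm. Mast cells, with 10 or more cells in 3 rats only, were left out of these orders. Their Gzmb mean over those 3 rats was 279.5 CPM, or 161 without young replicate 1, against 202 in NK cells over 6 rats. In the same rats mast cells exceeded NK cells in 2 of 3 for Gzmb, and CD8 T cells in 1 of 3 for Gzma and 2 of 3 for Nkg7. The cells that passed no gate had means of 90.7 for Prf1, 86.3 for Gzmk and 143 for Gzmm. Cd3e cells with 2 or more NK genes were below NK cells in 6 of 6 rats for each granule gene, although the ranges over rats overlapped, and their Prf1 levels were 289, 43.5, 244, 241, 305 and 572. For Ifng the order was CD8 T cells, other Cd3e cells, Cd3e cells with NK genes, CD4 T cells and NK cells, and all neighbours in it overlapped over rats. CD8 T cells exceeded other Cd3e cells in 4 of 6 rats.

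**Figure D2:**
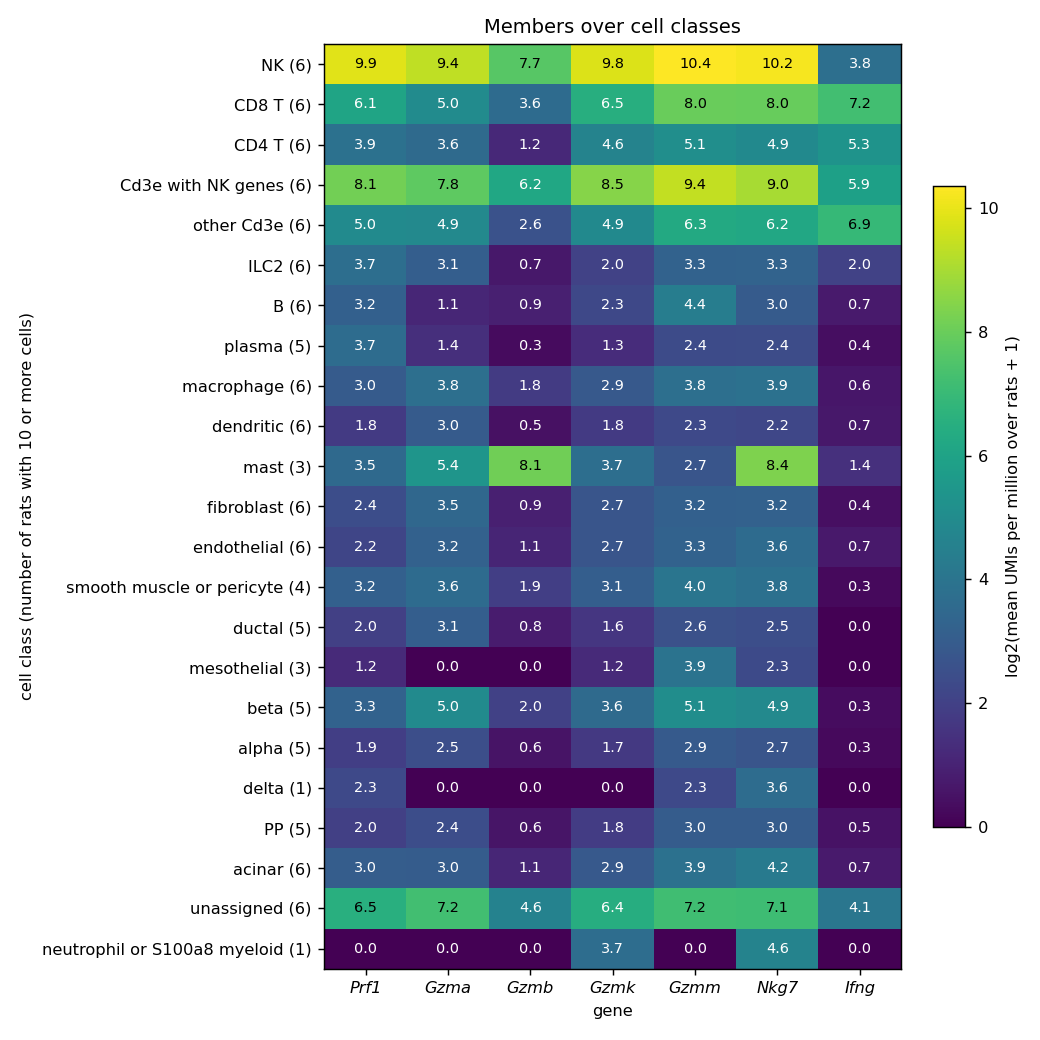
Mean level of each member over rats in every class of cells, as log2 of CPM plus 1. NK cells and Cd3e cells with NK genes carry the granule genes, the Gzmb mean of mast cells rests on 2 of 3 rats, and the Ifng column is highest in CD8 T and other Cd3e cells.

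Members were compared between NK and CD8 T cells of the same rats with edgeR on sums per rat and class, with the rat as a block. All 7 were called, at an adjusted p under 0.05 and a change of at least 1.5-fold, where 13.5% of the 11634 genes tested were. The 6 granule genes were higher in NK cells in 6 of 6 rats each, where 8.78% of genes were called higher, and Ifng was lower in 6 of 6 rats, where 4.74% were called lower. Gzma differed by a log2 fold change of 5.17 ± 0.33 (SE, adjusted p = 8.19e-06) and Gzmb by 4.41 ± 0.25 (adjusted p = 4.38e-06). Prf1 differed by 3.82 ± 0.17, Gzmk by 3.63 ± 0.36, Gzmm by 2.80 ± 0.39 and Nkg7 by 2.30 ± 0.23, the smallest of the 7, which is 4.94-fold. Ifng differed by -3.68 ± 0.26 (adjusted p = 1.62e-05). The median log2 fold change was 3.63 over the members and 0.028 over all genes tested.

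These 7 calls held in each rerun without 1 rat and under every other setting tried. Without young replicate 2 the values were 3.77 for Prf1, 5.52 for Gzma, 4.43 for Gzmb, 3.59 for Gzmk, 2.88 for Gzmm, 2.47 for Nkg7 and -3.67 for Ifng. The size of the granule gene differences moved with the limit on NK genes in the T gates. When T cells with NK genes were counted as CD8 T cells, Gzma was 8.14-fold higher in NK cells in place of 36.1-fold, Gzmb 7.41-fold in place of 21.2-fold, and Prf1 8.76-fold in place of 14.2-fold. Gzmk was then 6.28-fold and Gzmm 3.83-fold higher, and the log2 fold change of Ifng was -3.44.

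Of 65 genes listed for the same pathway, 54 were tested between NK and CD8 T cells and 19 were called, where 13.5% of all genes were, 8.78% higher and 4.74% lower in NK cells. Among regulators of the programme, 9 of 13 were higher in NK cells, with a median of 0.99, and the smallest p values were those of the interleukin-2 receptor chain Il2rb (1.81 ± 0.13), the interleukin-12 receptor chain Il12rb2 (1.36 ± 0.11) and the transcription factor Bhlhe40 (1.26 ± 0.16). The list of other granule contents and their processing went both ways, with 3 of 9 genes called. The granzyme B inhibitor Serpinb9 was higher (1.60 ± 0.22) and the cathepsin gene Ctsw (-1.68 ± 0.15) and Fgl2 (-0.71 ± 0.14) were lower. Of 8 exocytosis genes, the syntaxin gene Stx11 was called (1.45 ± 0.16), and of 7 ligands, cytokines and chemokines Ccl5 (1.52 ± 0.23). In the interferon gamma receptor and response list, Ifngr1 (1.02 ± 0.12), Irf8 (2.04 ± 0.36) and Cxcl10 (1.94 ± 0.42) were higher and Socs1 (-1.01 ± 0.14) and Tap1 (-0.77 ± 0.11) lower in NK cells, 5 of 17.

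Between CD8 T and CD4 T cells of the same rats, 5 members passed the filter on low counts and 4 of them were called higher in CD8 T cells, where 11.4% of 7501 genes were called in either direction, 3.39% as higher and 8% as lower. Nkg7 was higher by 3.27 ± 0.34 (adjusted p = 0.000272), Gzmm by 2.61 ± 0.61 (adjusted p = 0.0181), Prf1 by 2.46 ± 0.37 (adjusted p = 0.00164) and Ifng by 1.83 ± 0.34 (adjusted p = 0.00555). Gzmk, at 1.49 ± 0.53, was not called (adjusted p = 0.100). Gzma and Gzmb were too low to be tested. The Gzmm call was lost without old replicate 2 or without HFHF-old replicate 1 (adjusted p = 0.0588 and 0.0587), and the Ifng call was lost when cells with markers of another class were taken out, which left too few cells of young replicate 2 for the fit (1.16, adjusted p = 0.121) and without the rat as a block (adjusted p = 0.0508). Gzmk was called without the filter on low counts (1.58) and without the NK limit of the T gates (1.89), settings that called 1610 and 910 genes in all.

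All 5 ligands, cytokines and chemokines tested were higher in CD8 T than in CD4 T cells, namely Xcl1 (3.47 ± 0.33), Ccl5 (3.84 ± 0.55), Ccl4 (2.84 ± 0.51), Ccl3 (2.14 ± 0.50) and the death ligand gene Tnfsf10 (1.10 ± 0.30). Of 11 regulators, Tbx21 (1.25 ± 0.22), Runx3 (1.43 ± 0.19), Il12rb2 (1.99 ± 0.16) and Il2rb (1.02 ± 0.18) were higher and Zeb2 (-1.11 ± 0.32) lower. Ctsw, Serpinb9 and Cst7 were higher and Lamp2 lower among 9 genes of other granule contents and their processing. Vamp8 was lower among 8 exocytosis genes, and, of the interferon gamma receptor and response genes reported, Socs1 was higher and Ifngr2 and Ciita were lower. The CD4 T gate also held genes of NK and myeloid cells, and their part in these differences was not tested. Without cells that held markers of another class, 337 genes were called, 217 of them lower in CD8 T cells, against 854 and 600.

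**Figure D3:**
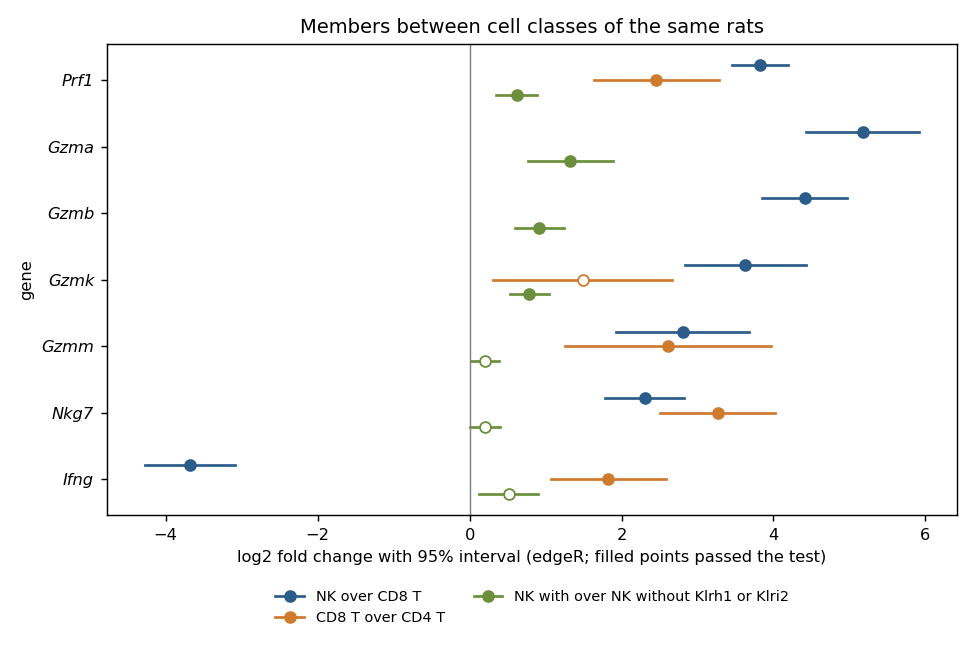
Log2 fold change of each member between classes of cells of the same rats, with 95% intervals from edgeR, for NK over CD8 T cells, CD8 T over CD4 T cells and NK cells with over NK cells without Klrh1 or Klri2. Ifng is the only member below 0 in NK over CD8 T cells, at -3.68.

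The share of cells with a UMI followed the same order. After each cell was thinned to 1000 UMIs, 59.1%, 19.4%, 52.6%, 58.8%, 57.3% and 58.4% of NK cells held Prf1, whereas 2.05% to 10.4% of CD8 T cells and 0.270% to 1.06% of fibroblasts did. Without thinning the NK shares were 49.95% to 97.0%. Ifng was held by 0.327% to 2.33% of thinned NK cells, by 4.97% to 18.9% of CD8 T cells and by 0% to 0.156% of fibroblasts. Without thinning, 2.08% to 13.5% of NK cells and 15.0% to 55.7% of CD8 T cells held it. The share of CD8 T cells with Ifng was higher than that of NK cells in every rat, at median depths of 3135 to 11590.5 and 3679 to 8902.5 UMIs.

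The granule genes were not spread over NK cells in the same way. The 5% of NK cells with the most Gzma UMIs held 38.0% to 69.5% of all Gzma UMIs of the class, and 13.1% to 35.2% of NK cells held any Gzma in 5 rats, 69.3% in young replicate 2. Nkg7 was spread more evenly, with 12.5% to 23.9% of its UMIs in the top 5% of cells and 79.6% to 97.8% of cells holding it. These shares are without thinning. In fibroblasts, a measure of free RNA, up to 6.64% of cells held Gzma in 5 rats and 11.1% in young replicate 2, and up to 9.20% held Nkg7. NK cells with at least 1 UMI of each of the 6 granule genes made up 26.8%, 9.20%, 24.3%, 14.9%, 10.8% and 22.4%, and those with none 5.40%, 3.48%, 16.0%, 2.89%, 4.88% and 0.750%. Among CD8 T cells, only HFHF-old replicate 2 had cells with all 6, at 0.697%.

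NK cells were split by whether they held an Ifng UMI, which 197, 43, 51, 34, 72 and 1095 cells did. This split was chosen after its values were seen and is given as a description. Gzma stood at 1683, 1461, 703, 909.6, 324 and 2467 in the cells with one against 1041, 671, 293, 651, 247 and 669 in the others. The values of Gzma, Gzmb, Gzmk, Nkg7 and Prf1 were above those of the other NK cells in 6 of 6 rats, and that of Gzmm in 2 of 6. An exact test over rats, adjusted over 12 comparisons, passed for none of them. Its adjusted p was 0.075 for Gzma, Gzmb, Gzmk, Nkg7 and Prf1 and 0.938 for Gzmm. The CD8 T cells with an Ifng UMI numbered 17, 4, 146, 52, 36 and 284, and young replicate 2, with 4, was left out. In the other 5 rats the Prf1 value of CD8 T cells with an Ifng UMI was below that of the others, at 21.2, 45.0, 65.5, 70.7 and 56.9 against 117, 54.2, 85.3, 118 and 72.8. Gzma rested on few UMIs, with 21.2, 5.62, 27.6, 6.74 and 43.9 against 21.2, 2.01, 9.48, 0 and 8.18. In CD8 T cells the smallest adjusted p of the same exact test was 0.107, for Prf1 and Gzma. The cells with an Ifng UMI had the higher median depth in 5 of 6 rats in NK cells and in 5 of 5 in CD8 T cells, and the part of depth was not tested.

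NK cells held most UMIs of the granule genes in every library and a minority of the Ifng UMIs in 5 of 6. For Prf1, 93.3%, 89.4%, 92.4%, 85.4%, 92.8% and 95.5% of the UMIs of the library lay in NK cells, and the lowest share for any granule gene in any rat was 74.9%, for Gzmm in young replicate 2. For Ifng the NK shares were 56.6%, 48.1%, 4.64%, 3.99%, 14.7% and 42.1%. Cd3e cells outside both T gates and with fewer than 2 of the NK genes held 10.5%, 15.4%, 52.6%, 62.1%, 49.6% and 17.8% of the Ifng UMIs, and CD8 T cells 9.80%, 9.62%, 31.8%, 9.14%, 17.9% and 24.8%. These shares follow the number of cells captured from each class as well as their levels.

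**Figure D4:**
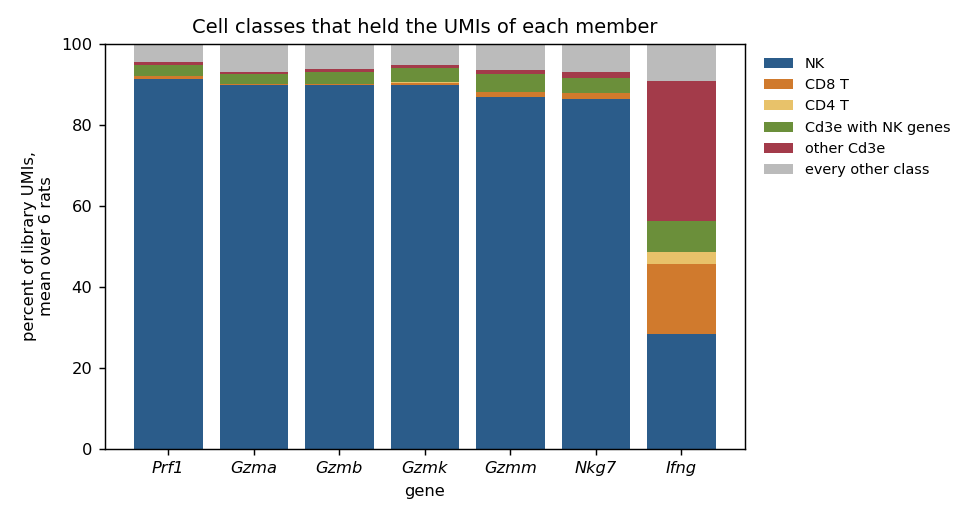
Share of each library's UMIs of a member that lay in NK cells, the 4 kinds of Cd3e cells and every other class, as the mean of the 6 rats. NK cells hold 86.3% to 91.5% of the UMIs of the granule genes and 28.3% of those of Ifng.

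The groups of rats were compared within NK and CD8 T cells with edgeR, with 2 rats in each group. None of the 7 members was called between old and young rats in NK cells, where 0.00711% of 14071 genes were, nor between HFHF-old and old rats, where 0% were. At an unadjusted p under 0.05 the numbers of members were again 0 and 0, and DESeq2 called 0 in both. From young to old rats, Gzmk stood at 0.99 ± 0.62 on the log2 scale (95% interval -0.55 to 2.52), Nkg7 at 0.84 ± 0.49 and Gzma at -0.93 ± 0.75. Leaving out 1 rat at a time moved Gzmk from 0.46 (without young replicate 2) to 1.89 (without young replicate 1), Nkg7 from 0.36 (without old replicate 2) to 1.23 (without old replicate 1) and Gzma from -1.71 (without old replicate 2) to -0.41 (without old replicate 1). The median was 0.68 over the members and -0.0073 over all genes. From old to HFHF-old rats, Ifng stood at 1.21 ± 0.96 (95% interval -1.17 to 3.58), Gzmb at -0.74 ± 0.47 and the other 5 between -0.55 and 0.26, and the median was -0.18 over the members and 0.11 over all genes. With 1 rat left out Ifng ran from -0.18 (without HFHF-old replicate 2) to 1.88 (without HFHF-old replicate 1) and Gzmb from -1.32 (without HFHF-old replicate 2) to -0.38 (without HFHF-old replicate 1). Young replicate 2 had the lowest NK level of 6 members, and without it Prf1 went from 0.32 to -0.22 between old and young rats. Once secretory cells were taken out, its NK level was the lowest for Prf1, Gzmk and Ifng only. The values above include those cells.

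The 2 HFHF-old rats bracketed the old rats for Gzma, at 252 and 963 in their NK cells against 315 and 658. Ifng was at 8.06 and 28.0 against 9.15 and 6.52, and its log2 value was -0.18 without HFHF-old replicate 2. The intervals above hold the changes compatible with fits to 2 rats in each group and are no limit of detection. An exact permutation test of 2 rats against 2 cannot go below p = 0.333. In counts simulated for these NK comparisons, 9% of log2 changes of 2 were called in each. Most changes of that size would thus go uncalled.

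In CD8 T cells, 0 of 7 members were called by edgeR between old and young rats, where 0.0107% of 9327 genes were, and 0 of 7 between HFHF-old and old rats, where 0.0214% were. DESeq2 called 0 of the members in both and 0 had an unadjusted p under 0.05. Gzma stood at -2.80 ± 1.21 and Gzmm at -1.70 ± 0.89 between old and young rats, and these 2 passed when genes of low count were kept in the test, a setting that called 239 genes in all against 1 with the filter. Leaving out 1 rat at a time moved Gzma from -3.91 (without old replicate 2) to -1.15 (without young replicate 2) and Gzmm from -3.35 (without old replicate 2) to -0.19 (without young replicate 1). Ifng stood at 0.64 ± 0.69 between old and young and at 0.36 ± 0.64 between HFHF-old and old rats, and with 1 rat left out the first ran from -0.49 (without old replicate 1) to 1.48 (without young replicate 1) and the second from -0.30 (without HFHF-old replicate 2) to 1.5 (without old replicate 1). The 2 old rats held Ifng at 238 and 60.4, the young rats at 137 and 55.6, and the ranges overlapped. The young libraries gave 60 and 14 CD8 T cells, so that 3 UMIs are worth 7.07 and 16.7 CPM there.

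**Figure D5:**
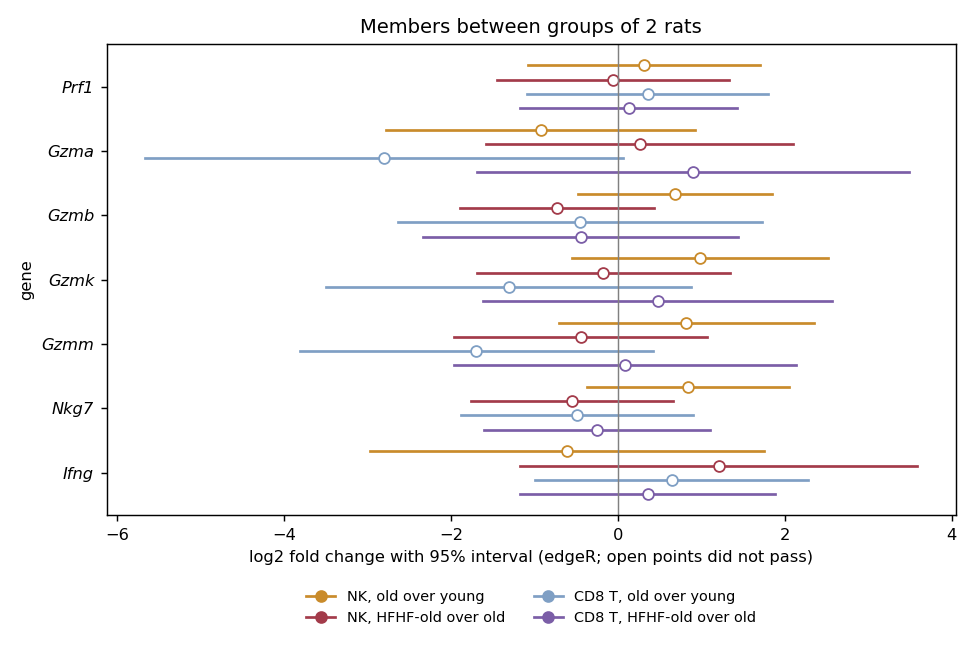
Log2 fold change of each member between groups of 2 rats in NK cells and CD8 T cells, with 95% intervals from edgeR, for old over young and HFHF-old over old rats. None passed the test, and every interval crosses 0.

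The change from young to old rats was also compared between NK and CD8 T cells. No gene of 11634 was called for this difference by edgeR (0%), 730 had an unadjusted p under 0.05 and DESeq2 called 9, Gzmm among them. Gzmm (2.49 ± 0.49, adjusted p = 0.337), Gzmk (2.13 ± 0.57, adjusted p = 0.508) and Nkg7 (1.37 ± 0.35, adjusted p = 0.508) had unadjusted p values under 0.05, each with a positive value in NK cells and a negative one in CD8 T cells. With 1 rat left out Gzmk ran from 0.19 (without young replicate 1) to 2.73 (without old replicate 2) and Gzmm from 1.58 (without young replicate 1) to 3.09 (without young replicate 2). With DESeq2 the value of Gzmm was 2.46 (adjusted p = 0.0309), and over the other edgeR settings its adjusted p ran from 1.30e-10 to 0.694. It was called when Cd8a was accepted for CD8 T cells (adjusted p = 0.0164) and without old replicate 2 (adjusted p = 0.0332), settings that called 1 and 33 genes in all. Without the filter on low counts, a setting that called 185 genes in all, 4 members were called, Gzmm, Gzmk (2.11), Nkg7 (1.35) and Gzma (1.56). For the change from old to HFHF-old rats, 0 of 7 members were called by edgeR, where 0.043% of genes were, with 0 under an unadjusted p of 0.05 and 0 by DESeq2.

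In CD4 T cells 5 members and in macrophages all 7 were tested between groups with edgeR, and 0 were called in either contrast, with 0 and 0 under an unadjusted p of 0.05 in CD4 T cells and 2 and 0 in macrophages. Of all genes, 192 and 225 of 8317 in CD4 T cells and 1121 and 795 of 14154 in macrophages were under it. The shares of genes called were 0% and 0% in CD4 T cells and 0.00707% and 0% in macrophages. The 2 members in macrophages were Gzma (-4.69 ± 0.82, edgeR adjusted p = 0.418) and Prf1 (-1.43 ± 0.45, edgeR adjusted p = 0.517), both lower in old than in young rats. Over rats, the highest Gzma level in macrophages was 55.9 CPM, against 39.8 in fibroblasts, and the part of free RNA was not tested. Of the 65 pathway genes, 59 were tested in NK cells and 51 in CD8 T cells between groups, and edgeR called 0 in each of the 4 contrasts, with 2, 2, 2 and 5 under an unadjusted p of 0.05, where 285, 406, 596 and 477 of all genes tested were. In NK cells the smallest p values of the 5 lists belonged to Gzmbl1, Vamp7, Tnfsf10, Eomes and Tap1 between old and young rats, and to Gzmbl1, Ap3b1, Lta, Bhlhe40 and Cxcl11 between HFHF-old and old rats. In CD8 T cells they belonged to Fgl2, Vamp7, Ccl3, Il18r1 and Irf8, and to Lamp2, Vamp8, Ccl5, Il18rap and Ciita.

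NK cells with a UMI of the receptor genes Klrh1 or Klri2, of which there were 47, 271, 330, 357, 325 and 3209, were set against the other NK cells of the same rat. Of the 7 members, 4 granule genes were called higher in them by edgeR, Gzma by 1.33 ± 0.25 (adjusted p = 0.0319), Gzmb by 0.92 ± 0.15 (adjusted p = 0.0165), Gzmk by 0.79 ± 0.12 (adjusted p = 0.0136) and Prf1 by 0.62 ± 0.12 (adjusted p = 0.0372). Of 11620 genes, 1.27% were called, 0.448% as higher and 0.826% as lower. Gzma stood at 1485, 1514, 694, 858, 514 and 1458 in cells with either receptor and at 1101, 567, 98.3, 568, 141 and 593 in cells without. Gzmm (0.20 ± 0.083), Nkg7 (0.20 ± 0.090) and Ifng (0.52 ± 0.17) were not called. Of 55 pathway genes edgeR called 0, with 23 under an unadjusted p of 0.05, where 1526 of the 11620 genes were. Cells with either receptor had the higher median depth in 5 of 6 rats, and its part was not tested. These calls depended on the rat as a block: without it Gzma, Gzmb, Gzmk and Prf1 all lost theirs (adjusted p = 1.000 each), and 1 gene of all was called. The Gzmk call held without each rat in turn. Prf1 lost its call without any of 5 rats, Gzma without young replicate 2, HFHF-old replicate 1 or HFHF-old replicate 2 (adjusted p = 0.0863, 0.0849 and 0.0631), and Gzmb without young replicate 2 (adjusted p = 0.0540). Prf1 and Gzma lost their calls without the filter on cells (adjusted p = 0.0690 and 0.0666), and Prf1 fell below 1.5-fold with all 3 NK genes required (0.49), without cells that held markers of another class (0.53) and without secretory cells (0.57).

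Over 20 classes of cells, the genes most like the mean of the 7 members, by Pearson correlation of log2 levels, were Klrb1c (0.98), Ly49s6 (0.97), Ccl5 (0.96), Eomes (0.94) and A2ml1 (0.94). Those most like Ifng were Tbxt, NEWGENE_1311658, AABR07017846.1, T2 and Arpp21, all at 0.97. Among the members, Gzmk and Gzmm ran closest to Prf1 (0.96 and 0.93), and Gzmb ran closer to Nkg7 (0.95) than to Prf1 (0.76). Ifng was nearest Gzmm, Gzmk and Prf1 (0.77, 0.77 and 0.74). The classes come from the same 6 libraries and share their depth, so these values only describe the pattern.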

How the data were processed

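Single cells from the pancreas of 6 rats were measured with the 10x 3' gene expression assay. The authors aligned the reads with Cell Ranger (the headers of the deposited matrices name 5.0.0) to a rat genome (Rnor 6.0 per the submitters' processing notes) and deposited raw UMI counts per gene and barcode, which were used as deposited. Cells with under 200 genes, over 25% mitochondrial UMIs or in the top 1% by number of genes were left out, as an approximation of the study's filters. Cells were gated by marker genes, with thresholds set after the files were seen, and a level needed 10 cells of a class in a rat. Doublets were not removed; an alternative took out cells with defining markers of other classes. Shares of cells were thinned to 1000 UMIs, leaving out shallower cells.

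Counts were summed per rat and class and tested with edgeR 4.0.16 in R 4.3.3 (quasi-likelihood test, TMM normalization, filterByExpr), with Benjamini-Hochberg adjustment over all genes tested; a call needed an adjusted p under 0.05 and a 1.5-fold change. Each rat is 1 replicate. DESeq2 1.42.0, RLE normalization, other filters and gates, and leaving out each rat were alternatives. The scripts were tested on simulated data. The text names the 7 members, the called genes of 5 pathway lists (or the 3 of smallest p, of which the first is printed between groups) and the 5 genes most like them. The members and lists were chosen with earlier results of these data known, and the motifs after the promoters were seen. Lyst, Fasl and Stat4 were not analysed here. A called gene of the interferon gamma response list is not reported here. Floors (3 counts) cover counting error only, while the 95% intervals come from the edgeR fits over rats, and UMIs of different genes were not scaled by length.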

Additional observations from a re-analysis of the deposited data

How the results depend on the processing

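The numbers of genes called moved by more than 1.5 times under several settings. With DESeq2 they were 31 for NK cells, old against young (1 as reported), 33 for NK cells, HFHF-old against old (0 as reported), 25 for CD8 T cells, old against young (1 as reported), 21 for CD8 T cells, HFHF-old against old (2 as reported), 4 for CD4 T cells, old against young (0 as reported), 7 for CD4 T cells, HFHF-old against old (0 as reported), 64 for macrophages, old against young (1 as reported), 30 for macrophages, HFHF-old against old (0 as reported), 225 for NK cells with Klrh1 or Klri2 against NK cells without (148 as reported), 9 for difference between NK and CD8 T cells in old against young (0 as reported) and 19 for difference between NK and CD8 T cells in HFHF-old against old (5 as reported). Without the filter on low counts they were 239 for CD8 T cells, old against young (1 as reported), 263 for CD8 T cells, HFHF-old against old (2 as reported), 70 for CD4 T cells, old against young (0 as reported), 145 for CD4 T cells, HFHF-old against old (0 as reported), 2 for macrophages, old against young (1 as reported), 1610 for CD8 T cells against CD4 T cells (854 as reported), 421 for NK cells with Klrh1 or Klri2 against NK cells without (148 as reported), 185 for difference between NK and CD8 T cells in old against young (0 as reported) and 195 for difference between NK and CD8 T cells in HFHF-old against old (5 as reported). Without the filter on cells they were 0 for CD8 T cells, old against young (1 as reported), 1 for CD8 T cells, HFHF-old against old (2 as reported) and 43 for NK cells with Klrh1 or Klri2 against NK cells without (148 as reported). Without the rat as a block they were 725 for NK cells against CD8 T cells (1572 as reported), 239 for CD8 T cells against CD4 T cells (854 as reported) and 1 for NK cells with Klrh1 or Klri2 against NK cells without (148 as reported). With all 3 NK genes required they were 0 for NK cells, old against young (1 as reported), 82 for NK cells with Klrh1 or Klri2 against NK cells without (148 as reported) and 2 for difference between NK and CD8 T cells in HFHF-old against old (5 as reported). With Cd8a accepted for CD8 T cells they were 1 for CD8 T cells, HFHF-old against old (2 as reported), 1 for difference between NK and CD8 T cells in old against young (0 as reported) and 2 for difference between NK and CD8 T cells in HFHF-old against old (5 as reported). Without the NK limit of the T gates they were 2 for CD8 T cells, old against young (1 as reported). With RLE in place of TMM normalization they were 3 for difference between NK and CD8 T cells in HFHF-old against old (5 as reported). Without cells that held markers of another class they were 0 for NK cells, old against young (1 as reported), 0 for CD8 T cells, old against young (1 as reported), 11 for CD8 T cells, HFHF-old against old (2 as reported), 337 for CD8 T cells against CD4 T cells (854 as reported) and 21 for difference between NK and CD8 T cells in HFHF-old against old (5 as reported). Without secretory cells, a setting chosen after seeing the data, they were 0 for NK cells, old against young (1 as reported), 0 for CD8 T cells, old against young (1 as reported), 4 for CD8 T cells, HFHF-old against old (2 as reported) and 3 for difference between NK and CD8 T cells in HFHF-old against old (5 as reported). Replicate numbers only name the rats, and no label ties same-numbered rats together: over 4 classes and 3 pairs of groups their deviations correlated from -0.27 to 0.41, above 0.1 in 3 of 12, and with the replicate number as a block the count was 0 for NK cells, old against young, CD8 T cells, old against young, CD8 T cells, HFHF-old against old and macrophages, old against young and no member was called between groups. Signs turned, with no member called, for NK cells, old against young: Prf1 (-0.12, strict NK gate), NK cells, HFHF-old against old: Prf1 (0.014, without doublets), CD8 T cells, old against young: Prf1 (-0.38, without doublets), CD8 T cells, old against young: Ifng (-0.049, without doublets), CD8 T cells, HFHF-old against old: Nkg7 (0.035, CD8 T by Cd8a or Cd8b), CD8 T cells, HFHF-old against old: Gzmm (-0.17, T gates without NK limit), difference between NK and CD8 T cells in old against young: Prf1 (0.13, CD8 T by Cd8a or Cd8b) and difference between NK and CD8 T cells in old against young: Prf1 (0.023, without doublets). Leaving out 1 rat gave 0 to 1 genes for NK cells, old against young, 0 to 1 genes for NK cells, HFHF-old against old, 0 to 4 genes for CD8 T cells, old against young, 0 to 55 genes for CD8 T cells, HFHF-old against old, 0 to 1 genes for CD4 T cells, old against young, 0 to 252 genes for CD4 T cells, HFHF-old against old, 0 to 2 genes for macrophages, old against young, 0 to 1 genes for macrophages, HFHF-old against old, 510 to 920 genes for CD8 T cells against CD4 T cells, 60 to 147 genes for NK cells with Klrh1 or Klri2 against NK cells without, 0 to 33 genes for difference between NK and CD8 T cells in old against young and 0 to 29 genes for difference between NK and CD8 T cells in HFHF-old against old. Without 1 rat, the sign turned in NK cells, old against young for Ifng -1.35 to 1.18, Prf1 -0.22 to 1.24 and Gzmm -0.043 to 1.38. Without 1 rat, the sign turned in NK cells, HFHF-old against old for Gzma -1.23 to 1.06, Prf1 -0.34 to 0.077, Gzmm -1.04 to 0.43, Gzmk -0.89 to 0.25 and Ifng -0.18 to 1.88. Without 1 rat, the sign turned in CD8 T cells, old against young for Gzmb -2.03 to 0.37, Gzmk -2.17 to 1.77, Prf1 -0.18 to 2.09, Nkg7 -1.39 to 0.081 and Ifng -0.49 to 1.48. Without 1 rat, the sign turned in CD8 T cells, HFHF-old against old for Prf1 -0.26 to 0.67, Gzmk -0.21 to 1.35, Gzmm -0.68 to 1.74, Gzmb -1.27 to 1.12, Nkg7 -1.06 to 0.65, Ifng -0.30 to 1.49985 and Gzma -1.90 to 1.99. Without 1 rat, the sign turned in difference between NK and CD8 T cells in old against young for Prf1 -0.84 to 0.16. Without 1 rat, the sign turned in difference between NK and CD8 T cells in HFHF-old against old for Prf1 -0.71 to 0.077, Gzmb -1.73 to 0.36, Ifng -0.36 to 1.15, Gzma -0.84 to 0.80 and Nkg7 -0.71 to 0.015. The 7 member calls between NK and CD8 T cells kept their direction and their side of the threshold under all alternatives. The cause of these changes was not tested. Few CD8 T and CD4 T cells in the young rats limit what could be seen there.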

Other observations

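Mast-gated cells, with 23, 14 and 28 cells in young replicate 1, HFHF-old replicate 1 and HFHF-old replicate 2 and fewer than 10 in the other rats, held Gzmb and Nkg7. Gzmb stood at 516, 11.95 and 311 CPM, from 78, 1 and 61 UMIs, and Nkg7 at 245, 299 and 438, from 37, 25 and 86 UMIs. The Gzmb level of HFHF-old replicate 1 rests on 1 UMI, so the 3 rats did not share the pattern for this gene, while all 3 held Nkg7. Prf1 stood at 6.61, 0 and 25.5 and Gzmm at 0, 11.95 and 5.09 in the same cells. The mast cell genes Cpa3, a carboxypeptidase of mast cell granules, and Ms4a2, a chain of the IgE receptor, stood at 15259, 9012 and 17474 and 1462, 1494 and 1314. Both were among the markers that gated these cells, so their levels are no independent check of the class. Too few rats of a group had 10 such cells for a comparison between groups.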
